A study of Mus musculus with 9 samples.

Results

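Krt8, Krt18, Krt19 and Krt7, the keratins of simple epithelia, were followed in mouse embryos at the morula stage. These 4 genes were found by name among the 53819 rows of the count tables, and all 4 were present. Krt8, Krt18 and Krt7 had enough counts for testing, so 3 of the 4 were among the 12488 genes tested, and Krt19 is described by its counts alone. The study asked whether a sire's alcohol exposure before conception alters transcripts of its offspring, produced here by in vitro fertilization. Embryos of the C57BL/6J strain came from control sires, sires given 6% EtOH or sires given 10% EtOH, with 3 libraries of total RNA in each group. Libraries are called control 1 to 3, 6% ethanol 1 to 3 and 10% ethanol 1 to 3. The labels do not say how many embryos or sires stand behind a library or how old the sires were, and nothing says that libraries came from separate sires. The p-values therefore rest on library-to-library spread alone, some of which may be technical.

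Keratins are intermediate filament proteins that assemble only as pairs of a type I and a type II protein. Krt8 and Krt7 are type II, and Krt18 and Krt19 are type I. Krt8 and Krt18 form the earliest keratin filaments of the mouse embryo, which appear around compaction in the outer cells, and these genes mark the trophectoderm, the outer epithelium that will build the placenta. Krt7 and Krt19 belong to the same simple epithelial set and are also trophectoderm and placental keratins. Desmosomes, the junctions that take form as the blastocyst develops, anchor keratin filaments at the cell membrane, and plakin proteins such as plectin link them to other structures.

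Library totals ran from 6263465 to 27619281 counts. Headers of the count column came in a long form, with an aligner's name in it, for 4 libraries and in a short form for 5, and no label explains the difference. The long form belonged to control 2, to the first 6% ethanol library and to 10% ethanol libraries 1 and 2. These 4 libraries had totals of at least 19574710 counts, and the short-header ones at most 11026334. Header form therefore cannot be told apart from depth. Morula and early embryo markers were present, with counts for 10 of 10 and a summed level of 2500 to 4600 CPM (a gene's counts divided by the library total and scaled alike in all libraries) over the 9 libraries. Among markers of other cells, 6 of 10 cumulus and granulosa markers had counts, but Fshr, Inhba, Has2 and Ptx3 were at 0 in all libraries. Amhr2 made up most of the sum, which was 0.907 to 14.8 CPM in controls, 4.04 to 50.8 CPM with 6% ethanol and 6.48 to 74.6 CPM with 10% ethanol. For the keratinocyte markers the sums were 63.6 to 177, 38.8 to 166 and 202 to 265 CPM in the same order, almost all from Sfn, while Krt5 and Ivl were at 0. Each 10% ethanol library lay above every other library in that sum, and in Sfn alone. Such separation upward was found for 4.40 percent of tested genes against controls and 6.05 percent against 6% ethanol. The next highest keratinocyte marker, Krt10, had a mean of only 0.667 CPM. Fibroblast markers summed to at most 52.8 CPM, mostly Pdgfra, with Col1a2 at 0, and the blood and sperm lists never passed 0.264 CPM. The part of these levels in the keratin results was not tested.

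Krt18 was the most abundant of the 4 keratins and Krt8 the next, while Krt7 and Krt19 were scarce. Of all counts on the 4 genes, Krt18 held 78.4 percent, Krt8 20.5 percent, Krt7 1.03 percent and Krt19 0.137 percent. Per kilobase of transcript, the scale on which genes can be compared, the median over 9 libraries was 48.3 CPM for Krt18, 13.3 CPM for Krt8 and 0.161 CPM for Krt7. The lengths used, unions of all annotated exons, were 1437, 1958 and 4094 bases in that order. A union can be longer than any single transcript, which would lower the level and rank of a gene such as Krt7. Krt18 lay above Krt8 per kilobase in 9 of 9 libraries, and Krt8 above Krt7 in 9 of 9. Among 12174 tested genes with a known length, ranked per kilobase within each library, Krt18 stood at a median percentile of 88.9, Krt8 at 70.7 and Krt7 at 13.7. In bulk libraries such as these, fewer cells that carry a keratin and less of its RNA per cell cannot be told apart.

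Krt8, the type II partner in the filaments of early trophectoderm, had 64.1, 109.9 and 27.2 CPM in controls 1 to 3, on TMM-scaled library sizes. Its levels were 25.6, 3.04 and 25.99 CPM in 6% ethanol 1 to 3, and 15.6, 45.7 and 12.5 CPM in 10% ethanol 1 to 3. All 3 libraries of the 6% group lay below all 3 controls, though control 3 was only just above the highest of them, and the 10% group overlapped the controls. With mitochondrial and rRNA counts left out of the totals, and no TMM scaling, 6% ethanol 1 (30.43 CPM) lay above control 3 (29.45 CPM). The low value of 6% ethanol 2 rested on 16 counts. Its share of the full library total was 2.55 CPM, with an exact 95% binomial interval of 1.46 to 4.15 CPM, and the next lowest library had 12.5 CPM against 3.04 CPM on the TMM scale. Intervals and limits of this kind cover counting error only. Library 6% ethanol 2 also had the lowest total, 6263465 counts, and the largest share of tested genes at 0, 13.5 percent. The part of this in its keratin levels was not tested.

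Krt18, the type I partner of Krt8, had 69.4, 644.3 and 50.3 CPM in controls 1 to 3. Levels were 67.2, 99.1 and 76.3 CPM in 6% ethanol 1 to 3, and 50.8, 73.0 and 23.9 CPM in 10% ethanol 1 to 3. Control 2 stood 6.50-fold above the next library and held 17905 of the 25098 counts on Krt18. Without it the other 8 libraries spanned 23.9 to 99.1 CPM, a 4.14-fold range, and controls 1 and 3 lay inside the range of the ethanol groups. The same 8 libraries spanned 21.1-fold for Krt8. That span rests on 6% ethanol 2, whose 3.04 CPM lay 4.10-fold below the next lowest library.

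Krt7, a type II keratin, had 4.39, 6.84 and 0.585 CPM in controls 1 to 3, and 0.253, 0 and 0.658 CPM in 6% ethanol 1 to 3. In 10% ethanol 1 to 3 it had 0, 2.04 and 1.47 CPM. Control 3 thus lay with the ethanol libraries, and controls 1 and 2 above them all. Krt19, a small type I keratin without the usual tail domain, was counted in only 3 libraries, with 7 counts in control 1, 6 in control 2 and 31 in 10% ethanol 2. A count of 0 over the 3 libraries of the 6% group allows up to 0.0752 CPM when 3 counts are taken as the limit. The pooled controls had 0.314 CPM, 4.18-fold that limit. This ratio rests on 13 control counts, whose own counting error is not included.

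**Figure D1:**
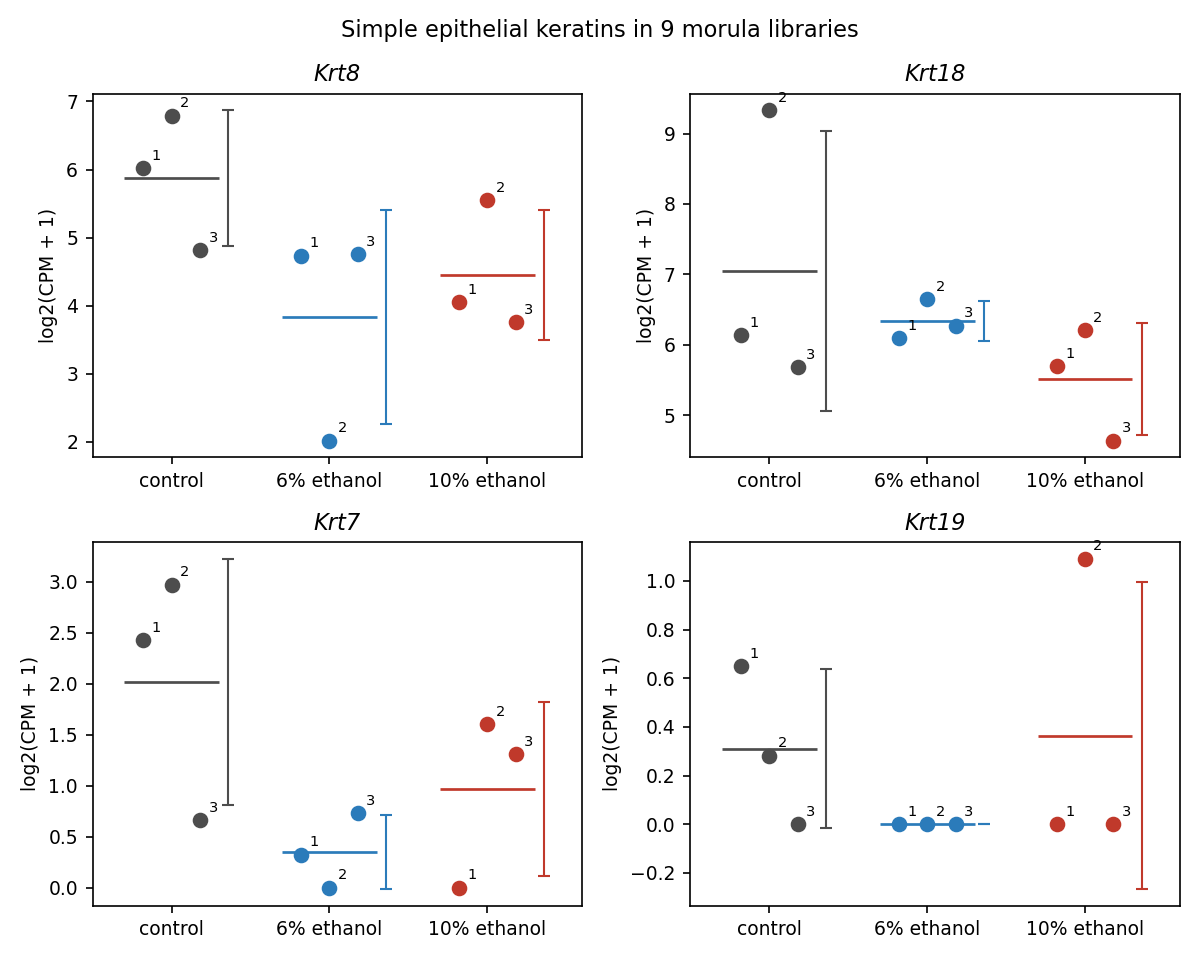
Level of each keratin in each library, as log2(CPM + 1) on TMM-scaled library sizes, for control, 6% ethanol and 10% ethanol. Points are single libraries with their replicate number, horizontal lines group means and bars ± SD (n = 3). Control 2 stands far above all other libraries for Krt18, and 6% ethanol 2 far below them for Krt8.

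The same 3 libraries (control 2, control 1 and 10% ethanol 2) were the highest for Krt8 and for Krt7, and they were the 3 with any Krt19 counts. Of these 3, only control 2 was among the 3 highest for Krt18, where 6% ethanol 2 and 6% ethanol 3 came next. Across the 9 libraries, log2(CPM + 1) of Krt8 and Krt7 correlated at Pearson r = 0.809 (exact permutation p = 0.00656, two-sided, 0.0197 after Benjamini-Hochberg adjustment over 3 relations). Spearman's rho was 0.803 (exact permutation p = 0.0124, adjusted 0.0371), and r was 0.682 without control 2 and 6% ethanol 2, the libraries farthest from the median of Krt8. For Krt8 and Krt18 r was 0.498 (exact permutation p = 0.180, adjusted 0.180) and rho 0.333 (exact permutation p = 0.385, adjusted 0.497), and r was -0.0102 without control 2 alone but 0.730 without control 2 and 6% ethanol 2. For Krt18 and Krt7 r was 0.541 (exact permutation p = 0.136, adjusted 0.180) and rho 0.259 (exact permutation p = 0.497, adjusted 0.497), and r was 0.0485 without control 2 and 10% ethanol 3. With 4 and 5 libraries, the header forms were too small for a correlation within each. The permutations moved all 9 libraries freely, so differences between sire groups or header forms also enter these p-values.

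The balance of type I to type II keratin transcripts ranged widely between libraries. There were 1.08 Krt18 counts per Krt8 count in control 1 (exact 95% binomial interval 0.983 to 1.20), 5.86 in control 2 (5.64 to 6.09) and 1.85 in control 3 (1.54 to 2.22). The ratio was 2.62 in 6% ethanol 1, 32.6 in 6% ethanol 2 (19.9 to 57.4) and 2.94 in 6% ethanol 3. It was 3.26, 1.598 and 1.92 in 10% ethanol 1 to 3. The extremes differed in make-up: control 2 combined the highest Krt18 with the highest Krt8, and 6% ethanol 2 combined the lowest Krt8 with the second highest Krt18. With Krt19 and Krt7 included, the mean log2 ratio of type I to type II counts was 1.12 ± 1.24 (SD, n = 3) in controls, 2.64 ± 2.07 with 6% ethanol and 1.04 ± 0.58 with 10% ethanol. Group ranges overlapped between controls and each ethanol group. Krt18 supplied at least 98.5 percent of the type I counts and Krt8 at least 89.4 percent of the type II counts in every library.

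**Figure D2:**
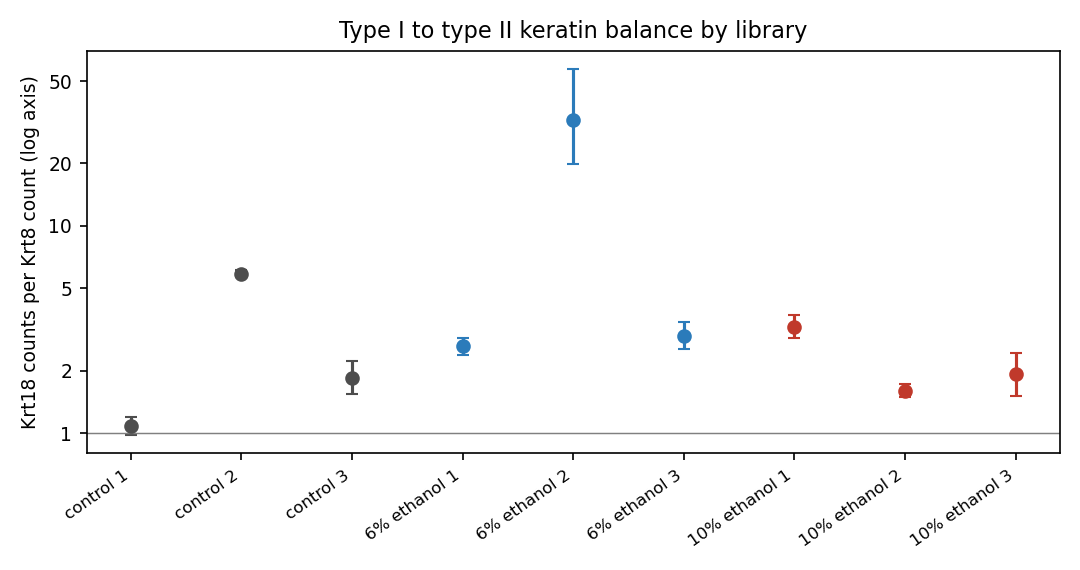
Krt18 counts per Krt8 count in each of the 9 libraries, on a log axis, coloured by sire group. Points are ratios of raw counts and bars exact 95% binomial intervals, which cover counting error only, and 6% ethanol 2 stands apart at 32.6.

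Krt8 and Krt18 are neighbouring protein-coding genes in GRCm38.p6, an older build than the one the authors counted on. The sequences below, from RefSeq, show what stands before the starts of the 3 members found in the promoter table, whose levels are compared throughout. Each is the 120 bases before the annotated start, in the direction of the gene. Capitals mark matches to the AP-2 motif GCCNNNGGC or the GC box GGGCGG on either strand.
Krt8 (GRCm38.p6, chr15:102004343-102004462, minus strand): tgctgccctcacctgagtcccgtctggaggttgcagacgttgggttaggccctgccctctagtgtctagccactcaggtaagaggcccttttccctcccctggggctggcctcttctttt
Krt18 (GRCm38.p6, chr15:102028096-102028215, plus strand): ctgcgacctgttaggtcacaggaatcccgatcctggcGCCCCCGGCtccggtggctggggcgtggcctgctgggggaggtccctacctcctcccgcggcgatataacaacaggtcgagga
Krt7 (GRCm38.p6, chr15:101412283-101412402, plus strand): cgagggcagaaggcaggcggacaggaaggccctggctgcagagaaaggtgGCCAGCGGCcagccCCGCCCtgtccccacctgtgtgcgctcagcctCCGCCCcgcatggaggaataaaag

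Over the 250 bases before the start, on both strands, the AP-2 motif had 1 match at Krt18, 2 at Krt7 and 0 at Krt8, and 13.7 percent of 32851 promoters of that length held one. The GC box had 4 matches at Krt7, one of which overlaps an AP-2 match, and 0 at Krt8 and Krt18, against 32.7 percent of promoters. At Krt8 the window held 1 match to the GATA motif AGATAA (9.99 percent of promoters) and 1 to the ETS motif GGAAGT (19.7 percent), and Krt7 also held 1 ETS match. The TEAD motif GGAATG (12.6 percent), the AP-1 motif TGANTCA (6.75 percent), the CCAAT box (33.8 percent) and the TATA box TATAAA (12.4 percent) had 0 matches in the 3 windows. At Krt8 a TATAAA match lay across the annotated start, outside the window. These are matches of letters and not sites of binding.

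With 6% ethanol all 3 tested keratins had lower fitted levels than in controls, and none passed the test. Krt8 had 67.05 ± 41.4 CPM (SD, n = 3) in controls and 18.2 ± 13.1 CPM with 6% ethanol, a log2 fold change of -1.88 ± 0.89 (SE) with an adjusted p of 0.802 by edgeR's quasi-likelihood test. Its groups did not overlap on the TMM scale, which held for 4.72 percent of all tested genes in the lower direction. Krt18 had 254.7 ± 337.6 CPM in controls and 80.9 ± 16.4 CPM (log2 fold change -1.66 ± 0.85, edgeR adjusted p = 0.804). Without control 2 the Krt18 value was 0.43 and did not pass, so its direction rested on that library. It was -0.69 with header form as a term, -3.26 in long-header libraries alone and 0.53 in short-header ones. Krt7 had 3.94 ± 3.15 and 0.304 ± 0.332 CPM (-3.63 ± 1.86, edgeR adjusted p = 0.804). DESeq2 gave adjusted p-values of 0.437 for Krt8 and 0.498 for Krt7. For Krt18 it returned no p in any of the 3 comparisons.

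Over all genes edgeR called 0 of 12488 in this comparison (0 percent), with 6.24 percent at an unadjusted p under 0.05. DESeq2 called 30 of the 11769 genes to which it gave an adjusted p (0.255 percent), and limma voom called 0. Before adjustment the smallest p of the keratins was that of Krt8, 0.0548 by edgeR's quasi-likelihood test across all genes, where 3.04 percent of tested genes were lower with a p under 0.05. Of all tested genes, 50.5 percent lay below 0.

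At 10% ethanol, against the same 3 control libraries, the fitted levels of the 3 keratins were again lower and none passed. Krt18 had 254.7 ± 337.6 CPM in controls and 49.3 ± 24.6 CPM with 10% ethanol, a log2 fold change of -2.37 ± 0.87 (SE). Its unadjusted edgeR p of 0.0180 was the only one under 0.05 among the 3, where 1.28 percent of all tested genes were lower at that level, and its adjusted p was 0.9999. The Krt18 value was -0.27 without control 2. Among long-header libraries alone it was -3.39 (edgeR adjusted p = 0.022), from control 2 as the only control. Among short-header libraries it was -1.33 (edgeR adjusted p = 1), with 10% ethanol 3 as the only ethanol library.

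Krt8 had 24.6 ± 18.4 CPM with 10% ethanol against 67.05 ± 41.4 CPM in controls (-1.45 ± 0.87, edgeR adjusted p = 0.9999), and overlapped the controls through 10% ethanol 2. The Krt8 value was -0.88 without control 2 and -2.27 without 10% ethanol 2. Krt7 had 1.17 ± 1.05 CPM (-1.75 ± 1.70, edgeR adjusted p = 0.9999), and -1.09 without control 2. Over all genes edgeR called 0 of 12488 (0 percent), with 2.14 percent at an unadjusted p under 0.05. DESeq2 called 10 of the 12004 genes to which it gave an adjusted p (0.0833 percent), and limma voom called 0. Of all tested genes, 52.9 percent lay below 0.

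Between the doses no keratin passed, and their directions differed. At 10% against 6% ethanol the log2 fold change was 0.43 ± 0.86 for Krt8 (edgeR adjusted p = 0.918), -0.71 ± 0.83 for Krt18 (0.861) and 1.88 ± 1.75 for Krt7 (0.832). The sign of the Krt8 value turned without 6% ethanol 2 (-0.05) or 10% ethanol 2 (-0.38), and the Krt7 value was 2.90 without 6% ethanol 3 and 1.19 without 10% ethanol 2. The Krt18 value was -1.10 without 10% ethanol 2 and -0.36 without 10% ethanol 3, and -1.67 with header form as a term. edgeR called 0 of 12488 genes here (0 percent), with 5.33 percent at an unadjusted p under 0.05. DESeq2 called 31 of the 12004 genes to which it gave an adjusted p (0.258 percent), and limma voom called 0. The dose groups overlapped for all 3 keratins, where 3.62 percent of tested genes were lower and 6.05 percent higher at 10% without overlap. The standard errors, near 0.9 log2 units for Krt8 and Krt18 and near 1.8 for Krt7, set how small a difference these 9 libraries could resolve.

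**Figure D3:**
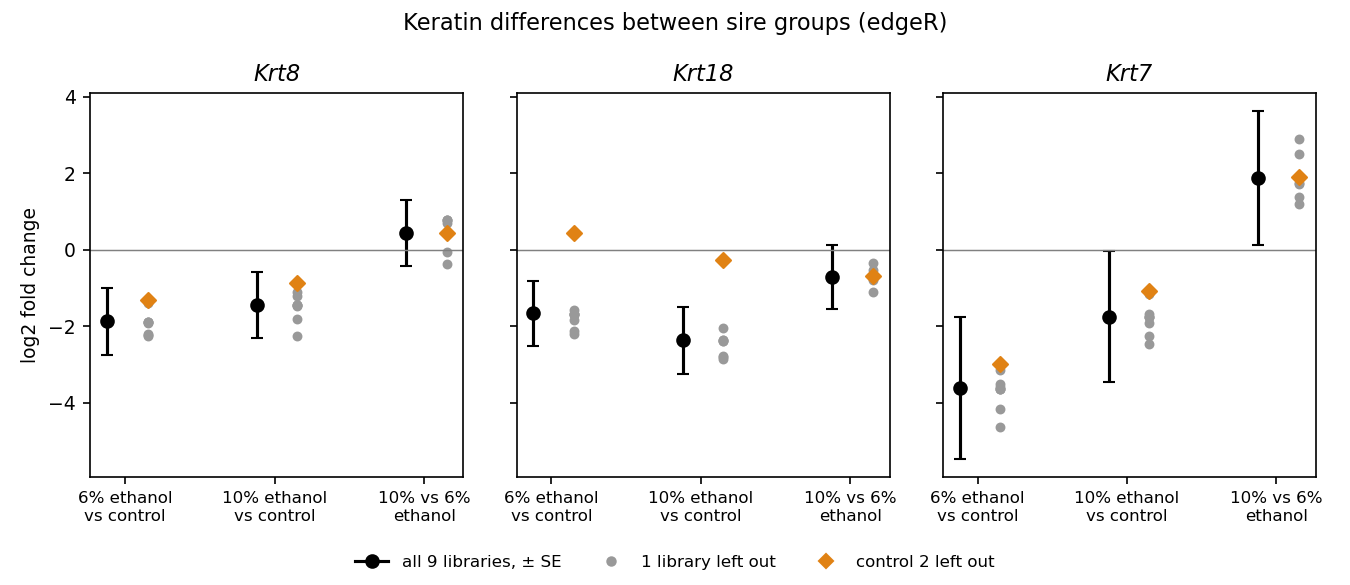
Log2 fold changes of Krt8, Krt18 and Krt7 from edgeR in the 3 comparisons. Black points with bars are the fit to 9 libraries ± SE, grey points are fits with 1 library left out, and orange diamonds are fits without control 2, which bring Krt18 to 0.43 and -0.27 in the comparisons with control.

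Neither member of the main pair passed a test of header form. With sire group in the same model, the difference of long-header minus short-header libraries was 1.72 ± 0.63 log2 units for Krt18 (adjusted p = 0.260 by edgeR) and 1.13 ± 0.68 for Krt8 (adjusted p = 0.453 by edgeR). Without control 2 the Krt18 difference was 0.51. In the fit to all 9 libraries 0.104 percent of tested genes were called for header form and 14.8 percent were under 0.05 before adjustment. Medians of Krt18 were 70.1 CPM over 4 long-header and 69.4 CPM over 5 short-header libraries.

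Other keratins had few counts. Of the 50 other keratin genes in the files, 25 had any count in any library and 2, Krt10 and Krt23, had enough for testing, and neither passed. Krt23, a type I keratin, reached 42.6 CPM in 10% ethanol 1, had 1.80, 1.17 and 0.338 CPM in control 2, control 3 and 6% ethanol 1, and was at 0 in the other 5 libraries. Its log2 fold change at 10% ethanol was 3.82 ± 2.43 (edgeR adjusted p = 0.9999) and -6.92 without 10% ethanol 1. Krt27, a hair follicle keratin, had 5.995 CPM in 6% ethanol 1 and at most 1.75 CPM elsewhere. Around the main pair, the keratins Krt78 and Krt79 had 2 and 7 counts in all 9 libraries together, while Eif4b, a translation initiation factor on the far side of Krt18, ran from 498 to 1131 CPM. The processed pseudogene Krt8-ps, which can share reads with Krt8, had 64 counts against 6550 for Krt8. The long noncoding gene Gm36026, which overlaps the start of Krt8 on the opposite strand in GENCODE M21, had 2 counts. The strand setting of the counting is unknown here, so reads of the latter kind cannot be told apart from those of Krt8.

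Plec, which encodes plectin, the plakin that ties keratin filaments to other cytoskeletal parts, had lower levels in both ethanol groups than in the shared controls, without overlap, and did not pass. It had 40.1, 25.6 and 24.6 CPM in controls 1 to 3. Levels were 7.18, 1.14 and 1.10 CPM in 6% ethanol 1 to 3, and 8.97, 6.82 and 3.74 CPM in 10% ethanol 1 to 3. The log2 fold changes were -3.24 ± 0.996 (adjusted p = 0.799 by edgeR and 0.0526 by DESeq2) at 6% and -2.21 ± 0.95 (0.9999 by edgeR and 0.801 by DESeq2) at 10%. Complete separation of this kind was found for 4.72 percent of tested genes at 6% and 3.67 percent at 10%. Ppl, the plakin periplakin, had 188 counts over the controls and 0 over the 6% group, though control 3 also had 0. With 3 counts over the 6% group taken as the limit, the control level was 60.4-fold that limit. Counting error of the controls is not included in this ratio. Of the 10 genes of the linker list 8 were tested and 0 passed. At 6% ethanol 6 of the 8 lay below 0 with a median of -0.80, and at 10% ethanol 6 of 8 with a median of -0.67, where all tested genes had medians of -0.01 and -0.05.

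Desmosome genes lay on both sides of 0. Of 13 listed, 8 were tested and 0 passed in either comparison with control, with 5 of 8 below 0 at 6% ethanol (median -0.42) and 6 of 8 at 10% (median -0.26). Pkp4, a plakophilin-related armadillo protein of cell junctions, had 33.2, 28.4 and 12.3 CPM in controls and 43.2, 85.8 and 83.1 CPM with 10% ethanol, higher without overlap (1.52 ± 0.76, edgeR adjusted p = 0.9999), as were 4.40 percent of tested genes. Dsp, the desmoplakin that binds keratin at the junction, had control levels of 5.37, 72.95 and 54.9 CPM, against 9.91, 31.3 and 14.9 CPM with 10% ethanol (-1.25 ± 0.92, edgeR adjusted p = 0.9999), and its value was -0.67 without control 2. The smallest p-values at 6% ethanol belonged to Pkp3, a plakophilin (-2.85 ± 1.87, edgeR adjusted p = 0.837), and Dsg2, a desmosomal cadherin (-1.45 ± 1.14, edgeR adjusted p = 0.856). Pkp3 was at -1.87 without control 1, and Dsg2 at -3.06 without 6% ethanol 1.

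Other intermediate filament genes mostly lay below 0, and again 0 of 7 tested passed. At 6% ethanol 5 of 7 lay below 0 (median -1.56), and at 10% ethanol 7 of 7 (median -1.08). The shares over all tested genes were 50.5 and 52.9 percent. Lmnb2, a B-type nuclear lamin, had 75.5, 22.9 and 44.6 CPM in controls and 12.1, 14.5 and 12.1 CPM with 6% ethanol (-1.89 ± 0.69, edgeR adjusted p = 0.799). It was lower without overlap, as were 4.72 percent of tested genes. Synm, the filament linker synemin, had 7.89, 5.40 and 0.585 CPM in controls and 0.313, 0.292 and 0.227 CPM with 10% ethanol (-4.02 ± 1.53, edgeR adjusted p = 0.9999). Nefh, a neurofilament gene, was high in a single library, control 3, at 54.7 CPM, against at most 2.36 CPM elsewhere.

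Regulators linked to trophectoderm lay on both sides of 0. Of 16 listed, 14 were tested and 0 passed, with medians of 0.11 at 6% and 0.18 at 10% ethanol, and 6 and 5 of 14 below 0. Tead4, the Hippo pathway factor that opens the trophectoderm programme, had 136, 110 and 58.0 CPM in controls and 204, 169 and 161 CPM with 10% ethanol (0.81 ± 0.47, edgeR adjusted p = 0.9999). The Tead4 value was 0.53 without control 3. Eomes had the next smallest p at that dose (-0.96 ± 0.76, edgeR adjusted p = 0.9999), with a value of -0.25 without control 2. Wwtr1, the Hippo coactivator TAZ, gave 1.53 ± 0.63 at 6% ethanol (edgeR adjusted p = 0.799), or 0.23 without 6% ethanol 3, where it reached 1020 CPM. Grhl1 likewise gave 2.40 ± 1.37 at 6% (edgeR adjusted p = 0.822) and -0.40 without that library.

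Among AP-1 and ETS factors, the families known to act on the Krt18 gene, 5 of 5 tested genes lay below 0 at both doses. Medians were -1.83 and -1.12, and 0 passed. The same controls served both doses, and 50.5 and 52.9 percent of all tested genes lay below 0. Tested were Jun, Junb, Jund, Fos and Ets2, the only ETS factor among them and also in the trophectoderm list. Control 1 was the highest library for each of these genes except Fos, which was highest in control 2. Junb had 131 counts over the controls and 0 over the 6% group, and its control level was 42.1-fold the same limit. Its control levels were 7.97, 1.15 and 0.146 CPM, so that ratio rests mainly on control 1. Jun had 33.4, 17.5 and 5.41 CPM in controls and 6.63, 2.85 and 6.25 CPM with 6% ethanol (-1.83 ± 0.93, edgeR adjusted p = 0.804), and its value was -1.14 without control 1.

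**Figure D4:**
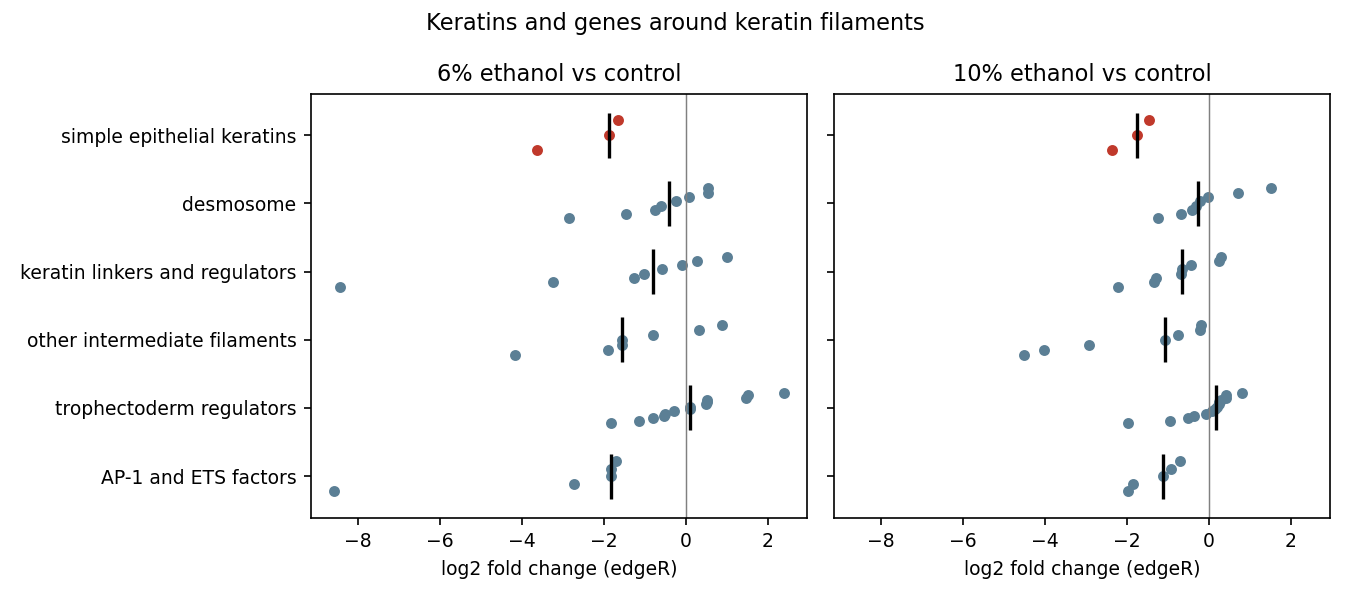
Log2 fold changes from edgeR of the 3 tested simple epithelial keratins (red) and of the tested genes of 5 lists (blue), for 6% and 10% ethanol against the same controls. Each point is a gene and each black bar a list median. The fitted values near -8 at 6% ethanol are Ppl and Junb, which had 0 counts in that group, and the trophectoderm medians lie just above 0.

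The genes most like Krt8 and Krt18 were ranked. Likeness was measured as Pearson r of log2(CPM + 1) over the 9 libraries, among 6843 candidates at a mean of 10 CPM or more, and is a description because libraries share depth and header form. Among the closest to Krt8 were Pdcd4, an inhibitor of translation initiation (r = 0.958), Bag4, a cochaperone of HSP70 (0.919), Tm7sf3 (0.908) and Cdip1 (0.894). With any single library left out the r of these 4 stayed at 0.782 or above. Pdcd4 ran from 2.47 to 56.8 CPM with its highest level in control 1. Closest to Krt18 were Hspa1a, the inducible HSP70 (0.915), Aldh9a1, an aldehyde dehydrogenase (0.889), Mbnl2, a splicing regulator (0.882), Kif2a, a microtubule-depolymerising kinesin (0.865), and Arhgap39 (0.853). All 5 had their highest level in control 2, and without it r was 0.627, 0.693, 0.552, 0.454 and -0.246 in the same order. Medians of Hspa1a, Mbnl2 and Arhgap39 were 4.85, 9.76 and 0.329 CPM, below the mean of 10 CPM asked of candidates. Their levels in control 2 were 82.3, 194 and 246 CPM. Krt18 itself ranked 1269 by likeness to Krt8, and Krt8 ranked 274 by likeness to Krt18.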

How the data were processed

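The deposited files hold raw counts per gene, made by the authors with featureCounts on GRCm39, per the submitters' processing notes, which also name DESeq2. The aligner RNA STAR is named for 4 files, per the file headers. Versions, annotation and strand setting are not given in the sources used here, and reads of pseudogene copies of Krt8 and Krt18 may be split between rows.

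The deposited counts passed edgeR's filterByExpr (grouped by treatment), were scaled with TMM factors and fitted with a quasi-likelihood model of 3 groups over 9 libraries (edgeR 4.0.16 in R 4.3.3, with DESeq2 1.42.0 and limma 3.58.1 for alternatives). Adjustment was by Benjamini-Hochberg across the tested genes, with a threshold of 0.05. Each SE of an edgeR fold change is the absolute log2 fold change divided by the square root of its quasi-likelihood F statistic. Scripts were tested on simulated data. Transcript lengths are exon unions of the GENCODE M21 basic set. Replicate numbers follow accession order and only name libraries. Marker sums use full library totals. Members and lists were chosen with earlier results of these data known. Named genes were the members, other keratins at 1 CPM or more in a group mean, the 2 of smallest p per list and comparison, and the 5 most like Krt8 or Krt18, leaving out predicted symbols. Not every one is described singly, and one is not reported here. Alternatives were RLE or no scaling, looser and stricter filters, DESeq2, limma voom, only the groups compared, a robust fit, header form as a term or alone, mitochondrial or rRNA genes removed, omission of each library in turn, full library totals for CPM, likeness with another pseudocount or centred header forms, and 0.1 as the threshold. Summing Krt8 with Krt8-ps, and leaving libraries out of the likeness, header and pairing values, were chosen after seeing the data.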

Additional observations from a re-analysis of the deposited data

How the results depend on the processing

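No paired analysis was possible because the labels give no replicate numbers shared between groups. The fold changes of Krt8 and Krt7 against control kept their direction, and did not pass, under every alternative that gave a value. That of Krt18 at 6% ethanol was 0.53 in short-header libraries alone and ran from -2.20 to 0.43 over fits without 1 library, positive only without control 2. At 10% ethanol Krt18 was -3.39 and passed in long-header libraries alone, where control 2 is the only control. For 10% against 6% ethanol Krt8 was -0.012 with header form as a term, -0.22 in short-header libraries, and -0.38 to 0.78 with 1 library left out. Genes called at 6%, at 10% and between the doses, each 0 by edgeR, were 140, 47 and 147 with no filter, 30, 10 and 31 by DESeq2, 48, 2 and 1 in short-header and 3, 9 and 4 in long-header libraries, and 0 in every fit without 1 library. Fits within header form hold groups of 1 library, which is assumed to vary like the others. The 13 genes called for header form became 0 to 30 with 1 library left out, and its Krt7 difference of 0.23 ran from -0.46 to 0.90. In long-header libraries alone Nefh was 1.13 and Grhl1 -2.25 at 6% ethanol, and Pkp4 -0.25, Wwtr1 0.44 and Grhl1 0.84 between the doses. With 1 library left out, Grhl1 ran from -0.40 to 4.54 at 6% and from -3.00 to 0.33 between the doses, Junb at 10% from -2.39 to 0.36, and Krt23 from -6.92 to 4.66 at 10% and from -4.08 to 10.7 between the doses. The likeness of Arhgap39 to Krt18 (r) ran from -0.246 to 0.956. Mean log2 ratios of type I to type II counts ran from 0.44 to 1.66 in controls, 1.45 to 3.27 at 6% and 0.71 to 1.24 at 10% ethanol with 1 library left out. The cause of these changes was not tested. DESeq2 gave no p for Krt18, so no call of it by that tool is counted. Depth limits Krt19 and Krt7, which had at most 31 and 190 counts in a library.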
